A study of Mus musculus with 4 samples.

Results

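Indirect-pathway medium spiny neurons of BACHD mice, a Huntington's disease model, were compared with the same neurons of wild-type (WT) littermates. CPM is the count of a gene per 1000000 of library size, with that size adjusted by TMM scaling as described under processing. Genes entered when they reached 10 CPM or more in at least 1 of the 2 D2 libraries, which took 9532 of the 37620 genes in the deposited table. Of these, 9298 reached 10 CPM in both D2 libraries and 234 in only 1 of them. At the edge of the rule, Ndufaf2 entered at 10 CPM and Lrrc55 was left out at 9.99 CPM. The same rule applied to the D1 libraries took 9620 genes, of which 9341 also passed in D2.

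The D2 BACHD library came from male mice on the FVB/NJ background, 5 to 6 months old, that carried the BACHD transgene, labelled Tg(Htt*97Q)IXwy. That transgene is a bacterial artificial chromosome with full-length human mutant huntingtin, 97 glutamines long and driven by huntingtin's own regulatory sequence. The D2 WT library came from male littermates of the same age and background without it. All of these mice also carried the Drd2-EGFP reporter, itself a bacterial artificial chromosome transgene, so both groups share the reporter. Whether any effect of the reporter differed by genotype was not tested. GFP-positive cells of the striatum were sorted, and each library pooled 4 animals at 150000 cells per animal. D1 BACHD and D1 WT libraries, 1 of each, were made likewise from mice with a Drd1-EGFP reporter and serve here only as a second pair to set beside the D2 values. Each of the 4 groups is 1 pooled library, so no value below has a replicate and no comparison of genotypes has a test. An interval covers at most counting error.

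Indirect-pathway neurons are GABA neurons that express the dopamine D2 receptor, an adenosine receptor and enkephalin and project to the external globus pallidus. Dopamine lowers cAMP in them through the D2 receptor, and adenosine raises it through the receptor encoded by Adora2a. They are known to be affected early in Huntington's disease, in which a polyglutamine expansion in huntingtin is linked to altered transcription and protein folding. Immediate early genes are transcribed quickly and briefly after stimuli, among them the calcium and cAMP signals that follow synaptic input. Their products include transcription factors such as Fos and effectors such as Arc.

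The D2 libraries held 43857032 (BACHD) and 44523621 (WT) estimated counts, and the D1 libraries 41325647 (BACHD) and 41684397 (WT). A count of 3 was worth 0.0691 to 0.0712 CPM across the 4 libraries. Mitochondrially encoded genes took 9.34% of counts in D2 BACHD and 8.37% in D2 WT, against 8.03% in D1 BACHD and 5.87% in D1 WT. Mouse Htt stood at 148.8 CPM in D2 BACHD and 159.7 CPM in D2 WT. The transgene is human, so mouse Htt does not check the genotype label.

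The cells carried the markers of the label. Drd2 stood at 2036 CPM in D2 BACHD and 2098 CPM in D2 WT, and at 20.4 CPM in D1 BACHD and 20.2 CPM in D1 WT. Adora2a, the adenosine receptor gene, stood at 2061 CPM in BACHD and 2211 CPM in WT, and Penk, which encodes enkephalin's precursor, at 7874 CPM in BACHD and 8330 CPM in WT. Gpr6, an orphan receptor gene of these neurons, was at 324.6 CPM in D2 BACHD and 406.5 CPM in D2 WT (log2 ratio -0.32, 95% counting interval -0.36 to -0.29). All 4 markers were slightly lower in the BACHD library. Of the 8 direct-pathway markers, whose summed level was 118.1 CPM in D2 BACHD and 149.8 CPM in D2 WT against 2884 CPM in D1 BACHD and 3010 CPM in D1 WT, 4 were members and none was at 0 in a D2 library. Of these 4, 3 had a ratio below 1 and 1 above. Drd1 was at 13.4 CPM in D2 BACHD and 18.5 CPM in D2 WT. Tac1, the substance P precursor gene, was at 65.9 CPM in BACHD and 90.8 CPM in WT, and Chrm4 at 9.95 CPM in BACHD and 13.0 CPM in WT. Sfxn1 was level, at 21.0 CPM in D2 BACHD and 20.5 CPM in D2 WT (0.04, interval -0.10 to 0.17). In pooled cells, fewer cells of a type and less RNA per cell cannot be told apart.

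Most members stood close to a ratio of 1. The median log2 ratio of D2 BACHD over D2 WT was 0.0004, with 95% of members between -0.28 and 0.27 and 99.5% within a ratio of 1.5 either way. A member was called when its ratio was 1.5 or more and its 95% counting interval excluded 1. By that rule 38 members were lower in D2 BACHD (0.399% of 9532) and 10 were higher (0.105%). At a ratio of 5 to 4 there were 170 lower (1.78%) and 127 higher (1.33%), and at a ratio of 2 there were 7 lower (0.0734%) and 1 higher (0.0105%). Counting intervals alone excluded a ratio of 1 for 2147 lower (22.5%) and 1985 higher (20.8%) members, so depth separated many differences far smaller than the rule of size. A member that entered only through the library where it was high had to differ, and this held for 11 of the 38 lower and 8 of the 10 higher ones. With 10 CPM required in both libraries, 27 lower and 2 higher members were called.

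The calls were spread over all levels. The 115 members with a mean under 10 CPM, 8 lower and 3 higher, had entered through 1 library only, so their share says nothing about level. Of 1706 members between 10 and 20 CPM, 6 were lower and 5 higher, and of 3108 between 20 and 50 CPM, 10 were lower and 1 was higher. Above 50 CPM, 14 members were lower and Ppia was the only higher one. The ratio leaned with level. Members between 10 and 20 CPM had a median log2 ratio of 0.03 (43.6% below 0). Those with a mean of 500 CPM or more had a median of -0.02 (62.5% below 0). The ratio also leaned with transcript length, estimated from the counts and the FPKM values (counts per kilobase of transcript, scaled to the library). Members under 1 kb had a median log2 ratio of 0.04 (33.6% below 0), and members over 4 kb a median of -0.02 (58.9% below 0). The part of these leans with level and length in any group of genes here was not tested.

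**Figure D1:**
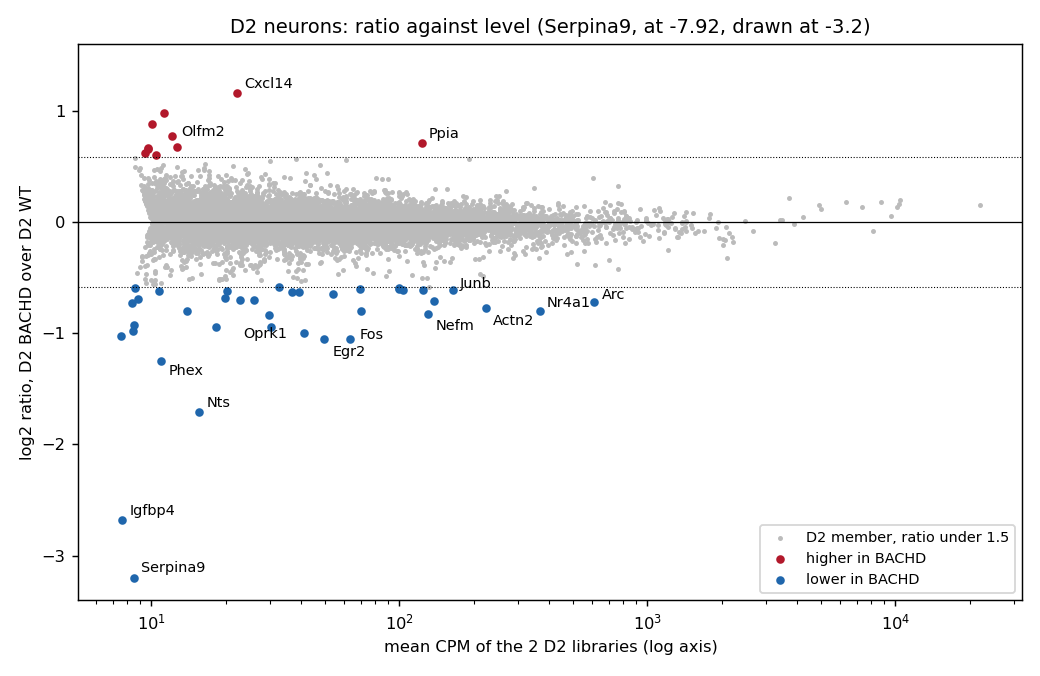
Log2 ratio of D2 BACHD over D2 WT (vertical) against the mean CPM of the 2 D2 libraries (horizontal, log axis), 1 point per member, with dotted lines at a ratio of 1.5. The 38 lower members (blue) run up to Arc at a mean of 610.8 CPM, and of the 10 higher members (red) only Ppia and Cxcl14 reached 10 CPM in both libraries.

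The immediate early genes formed the list with the most called members. Of 22 listed genes 20 were members (Nr4a2 and Ier2 were too low), and 18 of the 20 had a ratio below 1 with a counting interval below 1, against 49.9% and 22.5% of all members. By the rule of size 12 were lower and none was higher, against 0.399% and 0.105% of all members. Their median log2 ratio was -0.60, and their summed level over all 22 genes was 2363 CPM in D2 BACHD and 3458 CPM in D2 WT.

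Several genes of the AP-1 transcription factor family were lower. Fos stood at 41.3 CPM in D2 BACHD and 85.6 CPM in D2 WT (1768 counts in BACHD and 3717 counts in WT), which is 2.07-fold lower, with a log2 ratio of -1.05 (interval -1.14 to -0.97). Fosl2 was at 51.1 CPM in D2 BACHD and 89.1 CPM in D2 WT, and Fosb at 31.9 CPM in BACHD and 45.2 CPM in WT (-0.80 and -0.50). Junb, a partner of Fos, was at 129.5 CPM in D2 BACHD and 198.2 CPM in D2 WT (-0.61), and Jun at 15.8 CPM in BACHD and 24.4 CPM in WT (-0.62). Fosb fell short of the rule of size. Jund, the family member known for steady expression, was at 129 CPM in D2 BACHD and 124 CPM in D2 WT (0.06), so the members of the family differed among themselves.

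The zinc-finger Egr genes and the Nr4a nuclear receptor genes were lower too. Egr2 was at 32.2 CPM in D2 BACHD and 66.8 CPM in D2 WT (-1.06, interval -1.15 to -0.96). Egr3 stood at 20.8 CPM in D2 BACHD and 40.0 CPM in D2 WT (-0.94), and Egr4 at 73.8 CPM in BACHD and 103 CPM in WT (-0.48). Egr1, a widely used activity marker, was at 648.9 CPM in D2 BACHD and 869.9 CPM in D2 WT (-0.42, interval -0.45 to -0.40). Its counting interval was far from a ratio of 1, but the ratio fell short of the rule of size. Nr4a1 was at 268.8 CPM in D2 BACHD and 467.8 CPM in D2 WT (-0.80), and Nr4a3 at 30.9 CPM in BACHD and 47.8 CPM in WT (-0.63). Arc, which encodes a synaptic protein that takes part in AMPA receptor removal, was at 460.9 CPM in D2 BACHD and 760.7 CPM in D2 WT (19737 counts in BACHD and 33014 counts in WT; -0.72, interval -0.75 to -0.70). Npas4, a neuron-specific activity factor, was much closer, at 150 CPM in D2 BACHD and 171 CPM in D2 WT (-0.19).

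Phosphatase genes of the Dusp family and Btg2 completed the list. Dusp1, a phosphatase gene that ends MAP kinase signals, was at 54.8 CPM in D2 BACHD and 83.3 CPM in D2 WT (-0.61), and Dusp6, an ERK phosphatase gene, at 79.1 CPM in BACHD and 120.0 CPM in WT (-0.60). Btg2, an antiproliferative gene, was at 26.2 CPM in D2 BACHD and 39.4 CPM in D2 WT (-0.59) and lay just inside the rule of size. Dusp5 (-0.25) and Klf10 (-0.21) were lower by less, and Ier5 stood at 83.4 CPM in BACHD and 81.5 CPM in WT (0.03).

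The D1 pair stood the other way. There 19 of the 20 members had a ratio above 1, against 48.4% of the D2 members, with a median log2 ratio of 0.34. Counting intervals excluded 1 in opposite directions in the D2 and D1 pairs for 16 of the 20, against 5.93% of all members. Fos was at 49.0 CPM in D1 BACHD and 30.9 CPM in D1 WT, and Btg2 at 27.5 CPM in D1 BACHD and 14.4 CPM in D1 WT. Across the 4 libraries D2 WT had the highest level of Fos, Fosl2, Nr4a1 and Arc, and D2 BACHD stood between the D1 libraries for Fos. With 1 library a group, the difference between the pairs was not tested. The part of tissue handling and cell sorting in the levels of these genes was not tested either.

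**Figure D2:**
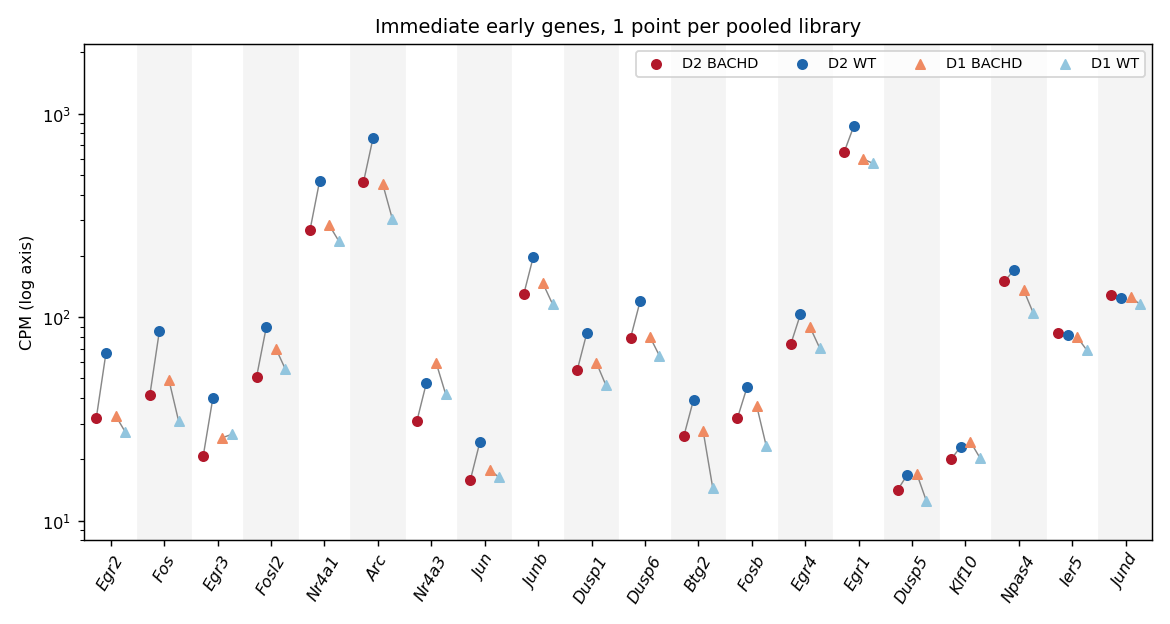
CPM (log axis) of the 20 immediate early members in the 4 pooled libraries, 1 point each (circles D2, triangles D1), with grey lines joining BACHD to WT. D2 BACHD lies below D2 WT for all genes except Jund and Ier5, at 41.3 CPM in BACHD and 85.6 CPM in WT for Fos, while D1 BACHD lies above D1 WT for 19 of the 20.

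The promoters of these genes were read from RefSeq (GRCm38.p6) over the 250 bases before the start site, for 16 of the 20. The full cAMP response element, TGACGTCA, was found in Btg2 and Dusp1, that is 2 of 16, against 3.48% of 7363 members with a promoter. The core TGACG, which the full element contains, was found on either strand in 11 of 16, against 33.5% of members. Members with the full element were not set apart as a class: 133 of 256 had a ratio below 1, with a median of -0.01. The SRF site known as the CArG box (CC, then 6 bases that are A or T, then GG) was found in Dusp5 and Egr2, against 1.29% of members. Fos is printed for its D2 ratio and Btg2 and Dusp1 for the full element, each 5′ to 3′ on its own strand. Capitals mark TGACG in Fos and TGACGTCA in the others. A match is a description of letters in this window and not a shown binding site.
Fos, chr12:85473640-85473889, plus strand: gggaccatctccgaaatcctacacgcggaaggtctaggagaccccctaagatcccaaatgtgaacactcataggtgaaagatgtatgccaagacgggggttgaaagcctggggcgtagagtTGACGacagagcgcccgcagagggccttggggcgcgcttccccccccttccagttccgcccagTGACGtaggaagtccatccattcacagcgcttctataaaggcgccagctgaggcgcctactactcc
Btg2, chr1:134079156-134079405, minus strand: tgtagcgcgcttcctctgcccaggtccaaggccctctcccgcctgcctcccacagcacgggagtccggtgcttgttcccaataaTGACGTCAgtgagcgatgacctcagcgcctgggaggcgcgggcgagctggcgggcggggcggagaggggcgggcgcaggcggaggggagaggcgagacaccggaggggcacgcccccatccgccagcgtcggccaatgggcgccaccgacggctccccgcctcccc
Dusp1, chr17:26508473-26508722, minus strand: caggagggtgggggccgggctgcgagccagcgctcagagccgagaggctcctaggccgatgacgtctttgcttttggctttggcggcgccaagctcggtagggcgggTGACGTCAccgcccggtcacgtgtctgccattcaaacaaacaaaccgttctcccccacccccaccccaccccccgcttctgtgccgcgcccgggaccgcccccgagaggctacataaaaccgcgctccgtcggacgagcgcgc

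Effector genes known to follow neuronal activity were lower by less. Of 24 listed, 15 were members, and 14 of these had a ratio below 1 (median -0.26), against 49.9% of all members. Tiparp, a poly(ADP-ribose) polymerase gene, was at 17.3 CPM in D2 BACHD and 28.2 CPM in D2 WT (-0.70), and Sik1, a salt-inducible kinase gene, at 19.7 CPM in BACHD and 32.0 CPM in WT (-0.70). These were the 2 called lower, against 0.399% of members. Among abundant effectors, Rgs2, which speeds the shut-off of G proteins, was at 445.5 CPM in D2 BACHD and 535.7 CPM in D2 WT (-0.27). Homer1, a postsynaptic scaffold gene with an activity-induced short form, was at 232.3 CPM in D2 BACHD and 277.9 CPM in D2 WT (-0.26). Vgf (209.8 CPM in BACHD and 251.0 CPM in WT; -0.26) and Per1 (254.9 CPM in BACHD and 319.4 CPM in WT; -0.33) stood similarly. Nptx2 was at 21.9 CPM in D2 BACHD and 21.7 CPM in D2 WT (0.02). In the D1 pair 13 of the 15 had a ratio above 1 (median 0.12), against 48.4% of the D2 members.

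Shisa2 and Midn, outside both lists, had the same pair of directions. Shisa2, a transmembrane protein gene, was at 12.4 CPM in D2 BACHD and 23.8 CPM in D2 WT (-0.94), and at 15.2 CPM in D1 BACHD and 10.3 CPM in D1 WT (0.57). Midn, which encodes the proteasome adaptor midnolin and is named here after its values were seen, was at 42.0 CPM in D2 BACHD and 65.9 CPM in D2 WT (-0.65), and at 45.9 CPM in D1 BACHD and 40.9 CPM in D1 WT.

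The transcript 1700016P03Rik on chromosome 11 (75172560 to 75177633, plus strand, GRCm38) hosts the activity-linked microRNAs miR-212 and miR-132. It stood at 21.3 CPM in D2 BACHD and 38.1 CPM in D2 WT (-0.84, interval -0.96 to -0.72), and at 28.0 CPM in D1 BACHD and 20.1 CPM in D1 WT (0.48). Its span overlaps Ovca2 on the opposite strand, which was also lower, at 62.95 CPM in D2 BACHD and 84.59 CPM in D2 WT (-0.43), so the split of reads between these genes is uncertain. The microRNA rows themselves, Mir132 (6 counts in BACHD and 15 counts in WT) and Mir212 (6 counts in BACHD and 7 counts in WT), were far below 10 CPM, and these values do not give the level of the mature microRNAs. Both main mature products carry the seed AACAGUC (bases 2 to 8, in capitals), the part of a microRNA that pairs with its targets. The sequences are from RefSeq (GRCm38.p6).
mmu-miR-132-3p, chr11:75173723-75173744, plus strand: uAACAGUCuacagccauggucg
mmu-miR-212-3p, chr11:75173443-75173464, plus strand: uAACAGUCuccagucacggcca

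Chaperone genes stood lower as a whole group by small amounts. All 28 members of 32 listed had a ratio below 1, 24 with a counting interval below 1 (22.5% of all members), with a median of -0.18, and none passed the rule of size. Hspa5, which encodes BiP, the main chaperone of the endoplasmic reticulum, was at 181.2 CPM in D2 BACHD and 253.5 CPM in D2 WT (-0.48, interval -0.53 to -0.44). Dnaja1, an Hsp40 co-chaperone gene, was at 177 CPM in D2 BACHD and 245 CPM in D2 WT (-0.47, interval -0.51 to -0.42). The abundant cytosolic chaperone genes differed less. Hsp90ab1 was at 1264 CPM in D2 BACHD and 1391 CPM in D2 WT (-0.14), Hspa8 at 699.3 CPM in BACHD and 780.9 CPM in WT (-0.16), and Hsp90aa1 at 522.9 CPM in BACHD and 597.8 CPM in WT (-0.19).

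Co-chaperones and folding machines filled the range between. Hsph1, an Hsp110 nucleotide exchange factor gene, was at 312.9 CPM in D2 BACHD and 369.4 CPM in D2 WT (-0.24), Dnajb5 at 261 CPM in BACHD and 317 CPM in WT (-0.28), and Dnajb1 at 52.0 CPM in BACHD and 64.5 CPM in WT (-0.31). The mitochondrial chaperone genes Hspd1 (97.7 CPM in BACHD and 113 CPM in WT) and Hspa9 (117 CPM in BACHD and 136 CPM in WT) stood at -0.21 and -0.22. Of the TRiC subunits, which fold actin and tubulin, Cct6a was lowest (21.7 CPM in BACHD and 28.3 CPM in WT, -0.38), while Cct7 (-0.04) and Cct2 (-0.05) were nearly level. Dnajb6, known as a suppressor of polyglutamine aggregation, was at 113 CPM in D2 BACHD and 115 CPM in D2 WT (-0.03).

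In the D1 pair 23 of the 28 chaperones also had a ratio below 1 (51.6% of the D2 members did), with a median of -0.09. Cct6a was lower there as well (-0.44). Hsph1 (0.11) and Dnajb5 (0.15) had intervals above 1 in D1 and below 1 in D2. The 2 pairs thus stood on the same side for most chaperones, unlike for the immediate early genes.

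Genes of the unfolded protein response, a list that shares Hspa5 and Hsp90b1 with the chaperones, gave a similar median. Of 21 members, 18 had a ratio below 1 (median -0.18), 14 with an interval below 1, against 49.9% and 22.5% of all members, and none passed the rule of size. Xbp1, whose spliced product drives the response, was at 79.8 CPM in D2 BACHD and 101 CPM in D2 WT (-0.34). Calr, a calcium-binding lectin chaperone gene, was at 354.9 CPM in D2 BACHD and 427.0 CPM in D2 WT (-0.27), and Hsp90b1, its Hsp90 neighbour in the lumen, at 286.7 CPM in BACHD and 342.6 CPM in WT (-0.26). Sdf2l1 (8.20 CPM in BACHD and 11.8 CPM in WT, -0.53), Dnajc3 (19.2 CPM in BACHD and 24.7 CPM in WT, -0.36) and Pdia4 (36.5 CPM in BACHD and 44.9 CPM in WT, -0.30) were lower too. Atf4, the transcription factor gene of the integrated stress response, was at 70.4 CPM in D2 BACHD and 69.5 CPM in D2 WT (0.02), Asns at 59.4 CPM in BACHD and 60.9 CPM in WT (-0.04), Ppp1r15a at 40.6 CPM in BACHD and 41.1 CPM in WT (-0.02) and Psat1 at 42.7 CPM in BACHD and 37.5 CPM in WT (0.19). In the D1 pair the list had a median of 0.00, and Xbp1 (0.12), Calr (0.08) and Manf (0.21) had intervals above 1.

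**Figure D3:**
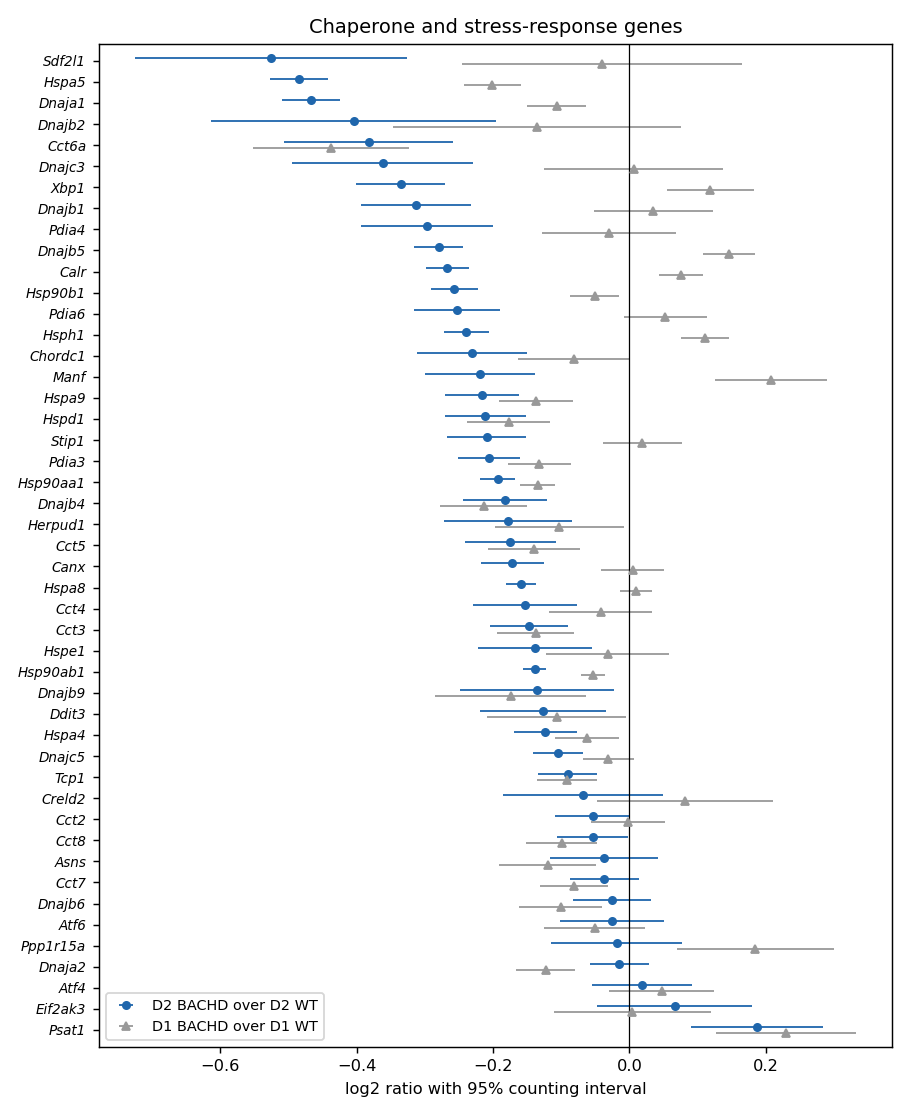
Log2 ratio with its 95% counting interval for each chaperone and stress-response member in the D2 pair (blue circles) and the D1 pair (grey triangles), ordered by the D2 value. Hspa5 at -0.48 and Dnaja1 at -0.47 are near the top, and Atf4, Eif2ak3 and Psat1 are the only genes right of 0 in D2.

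The endoplasmic reticulum stress element, CCAAT and CCACG separated by 9 bases on either strand, was found in the 250 bases upstream of 12 members, 0.163% of the 7363 with a promoter. Of these 12, 11 had a ratio below 1 and 8 an interval below 1, against 49.9% and 22.5% of all members, and the median was -0.15 in the D2 pair, beside -0.005 in the D1 pair. They were Hspa5, Dnajc3, Calr, Hsp90b1, Pdia6, Canx, Alg12, Adcy3, Creld2, Hnrnpa3, Syvn1 and Pan2. Of these, 7 are on the unfolded protein list, so the counts largely repeat those above. The genes off that list stood closer to level. They were Alg12 (-0.13), Adcy3 (-0.08), Hnrnpa3 (-0.06), Syvn1 (-0.03) and Pan2. The intervals of Alg12 and Syvn1 included 1. Pan2 alone of the 12 was above a ratio of 1 (0.06, interval -0.01 to 0.14). The heat shock element (GAA, TTC and GAA, or TTC, GAA and TTC, with 2 bases between, on either strand) was found in 3 of 22 chaperone promoters (Dnajb6, Hspd1 and Hspe1, against 0.462% of members), and 16 of the 34 members with it had a ratio below 1. The promoters of Hspa5, Hsp90b1 and Calr are shown as examples that carry the element, which is in capitals, read forward or as its reverse complement (RefSeq, GRCm38.p6).
Hspa5, chr2:34771840-34772089, plus strand: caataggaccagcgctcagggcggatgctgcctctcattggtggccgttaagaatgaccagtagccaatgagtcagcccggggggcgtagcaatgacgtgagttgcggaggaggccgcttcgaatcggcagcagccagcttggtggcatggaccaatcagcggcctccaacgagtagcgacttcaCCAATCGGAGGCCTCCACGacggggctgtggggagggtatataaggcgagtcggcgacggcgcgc
Hsp90b1, chr10:86705445-86705694, minus strand: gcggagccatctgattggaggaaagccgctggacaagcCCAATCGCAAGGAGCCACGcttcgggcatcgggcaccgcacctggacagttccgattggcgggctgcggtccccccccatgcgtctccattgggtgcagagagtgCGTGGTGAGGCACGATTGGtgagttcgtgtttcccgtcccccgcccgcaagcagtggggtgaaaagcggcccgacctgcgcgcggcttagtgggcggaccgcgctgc
Calr, chr8:84846932-84847181, minus strand: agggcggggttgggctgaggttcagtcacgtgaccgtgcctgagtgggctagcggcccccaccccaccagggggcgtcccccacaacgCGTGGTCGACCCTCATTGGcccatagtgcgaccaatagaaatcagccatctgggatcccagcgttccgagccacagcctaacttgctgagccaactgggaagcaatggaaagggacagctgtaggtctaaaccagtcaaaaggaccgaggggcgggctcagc

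A second set of genes was lower in D2 BACHD and in D1 BACHD alike. Of the 38 members called lower in D2, 9 were also called lower in the D1 pair, where 0.178% of the D2 members were, and 16 had a D1 interval below 1 (25.8% of the D2 members did). In contrast 14 had a D1 interval above 1 (21.4% did), and 8 included 1. Across all 9532 members the D2 and D1 log2 ratios were weakly related (Pearson's r 0.287, Spearman's rho 0.313, given as a description). The pairs share no library, but the scaling was set over all 4.

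The largest ratios of the shared set were in genes at low levels in D2. Igfbp4, which binds insulin-like growth factors, was at 2.05 CPM in D2 BACHD and 13.2 CPM in D2 WT (88 counts in BACHD and 573 counts in WT), 6.43-fold lower, with a log2 ratio of -2.68 (interval -3.02 to -2.36). In D1 it was at 5.79 CPM in BACHD and 27.4 CPM in WT (-2.24). Nts, the neurotensin precursor gene, was at 7.29 CPM in D2 BACHD and 23.8 CPM in D2 WT (-1.71), and under 1 CPM in both D1 libraries, so its shared direction rests on 10 counts in D1 BACHD and 27 counts in D1 WT. Phex, a membrane endopeptidase gene mutated in human X-linked hypophosphataemia, was at 6.49 CPM in D2 BACHD and 15.4 CPM in D2 WT (-1.25). Epyc, a small leucine-rich proteoglycan gene, was at 4.97 CPM in D2 BACHD and 10.1 CPM in D2 WT (-1.03). All 4 of these stood under 10 CPM in D2 BACHD and entered through the WT library.

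Structural and signalling genes at higher levels followed. Nefm, the medium neurofilament subunit gene, was at 94.0 CPM in D2 BACHD and 166.7 CPM in D2 WT (-0.83), and its neighbour Nefl at 109 CPM in BACHD and 141 CPM in WT (-0.36), while Nefh stood at -0.13. The annotated spans of Nefm and Nefl overlap on opposite strands, so reads in the overlap are of uncertain origin. Actn2, which encodes an actinin of dendritic spines, was at 164.2 CPM in D2 BACHD and 281.2 CPM in D2 WT (-0.78). Oprk1, the kappa opioid receptor gene, was at 27.7 CPM in D2 BACHD and 55.2 CPM in D2 WT (-0.995). Peg10, an imprinted retrotransposon-derived gene, was at 10.2 CPM in D2 BACHD and 17.7 CPM in D2 WT (-0.80). All 4 called genes of these were called in the D1 pair as well, with ratios of -0.94 for Nefm, -1.14 for Actn2, -0.95 for Oprk1 and -0.70 for Peg10.

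The other called members with D1 intervals below 1 are named after their values were seen. Lrrk2, the kinase gene mutated in familial human parkinsonism, was at 104.7 CPM in D2 BACHD and 171.6 CPM in D2 WT (-0.71; D1 -0.56). Galnt13, which starts mucin-type O-glycans, was at 81.7 CPM in D2 BACHD and 124.8 CPM in D2 WT (-0.61; D1 -0.79). Dock4, a Rac activator gene, was at 98.9 CPM in D2 BACHD and 150.8 CPM in D2 WT (-0.61; D1 -0.46). Cdr1 (29.0 CPM in BACHD and 44.9 CPM in WT, -0.63) overlaps transcripts of the opposite strand, from which its reads cannot be told apart. Skap2 (8.43 CPM in BACHD and 13.0 CPM in WT, -0.62) and Atxn1, the gene of ataxin-1 (6.84 CPM in BACHD and 10.3 CPM in WT, -0.59), were near the lower edge of membership. Rpl3-ps1, a processed pseudogene, was at 79.5 CPM in D2 BACHD and 119.6 CPM in D2 WT (-0.59), while its parent Rpl3 was at 153 CPM in BACHD and 125 CPM in WT (0.29), a pair whose reads are hard to assign. The RNA 1700003D09Rik (15.2 CPM in BACHD and 24.4 CPM in WT, -0.69) lies opposite Ppp1r1b, which was at 3038 CPM in BACHD and 3474 CPM in WT, so its reads cannot be separated from that gene's without strand.

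**Figure D4:**
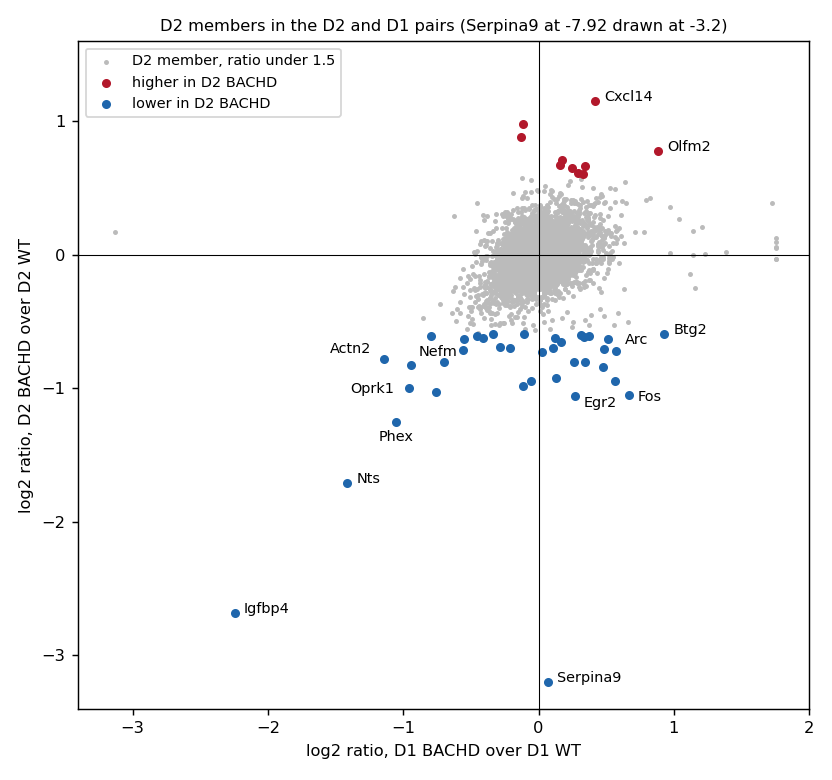
Log2 ratio of BACHD over WT in the D2 pair (vertical) against the D1 pair (horizontal), 1 point per D2 member (Serpina9 is drawn at the lower edge), with the 10 higher (red) and 38 lower (blue) D2 calls marked. Igfbp4 (-2.68 and -2.24), Nts, Phex, Oprk1, Nefm and Actn2 lie lower left, and Fos (-1.05 and 0.67), Arc and Btg2 lie lower right.

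Serpina9 had the most extreme ratio of the members. This serine protease inhibitor gene, known in human from germinal-centre B cells, lies on chromosome 12 (103994743 to 104013755, minus strand, GRCm38). It had 2 counts in D2 BACHD and 734 in D2 WT, or 0.0467 CPM in BACHD and 16.9 CPM in WT. With the 2 counts set to 3, the log2 ratio was -7.92 (interval -11.55 to -6.64). The D1 libraries held 67.9 CPM (BACHD) and 64.7 CPM (WT), with a log2 ratio of 0.07 whose interval reached -0.01. No other gene within 250 kb had more than 13 counts in any library, so the neighbourhood gives no second reading. With 1 pool a side, a difference between the animals pooled and a difference by genotype cannot be told apart for this gene. Htr1b, the serotonin 1B receptor gene, was called lower as well, at 5.65 CPM in D2 BACHD and 11.2 CPM in D2 WT (-0.98, interval -1.21 to -0.76). Its D1 interval included 1 (-0.11).

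The genes higher in D2 BACHD were few and mostly weak. Cxcl14, a chemokine gene, was at 30.6 CPM in D2 BACHD and 13.7 CPM in D2 WT (1.16, interval 1.02 to 1.299), and at 48.4 CPM in D1 BACHD and 36.2 CPM in D1 WT (0.42). Olfm2, an olfactomedin gene, was at 15.3 CPM in D2 BACHD and 8.96 CPM in D2 WT (0.78) and was the 1 higher member also called in D1 (0.89). Ppia, the gene of cyclophilin A, was at 152.6 CPM in D2 BACHD and 93.4 CPM in D2 WT (0.71). Gapdh, a glycolytic gene, was at 72.3 CPM in D2 BACHD and 49.1 CPM in D2 WT (0.56) and fell short of the rule. Ppia and Gapdh both have many processed pseudogenes in mouse, so how reads were shared among copies is uncertain, as for Rpl3.

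The remaining higher members entered through the BACHD library. Echdc2, a mitochondrial hydratase-like gene, was at 15.5 CPM in D2 BACHD and 9.72 CPM in D2 WT (0.68), and Hs3st1, a heparan sulfate sulfotransferase gene, at 11.9 CPM in BACHD and 7.49 CPM in WT (0.67). Igflr1 (11.9 CPM in BACHD and 7.53 CPM in WT, 0.65) and Xkr8, a phospholipid scramblase gene (12.6 CPM in BACHD and 8.30 CPM in WT, 0.60), were close to them. Gm11837 (14.97 CPM in BACHD and 7.58 CPM in WT, 0.98) overlaps Necab1 on the other strand. Necab1 itself was lower, at 299.2 CPM in D2 BACHD and 350.9 CPM in D2 WT. Gm14685 (13.1 CPM in BACHD and 7.10 CPM in WT, 0.88) overlaps Xlr5a on the opposite strand. Bcas1, known from newly myelinating oligodendrocytes, was at 11.4 CPM in D2 BACHD and 7.42 CPM in D2 WT (0.62). Just outside the rule stood Thsd1 (0.58), Kcng1 (0.57) and Robo3, a Robo-family guidance receptor gene, at 228.4 CPM in D2 BACHD and 154.4 CPM in D2 WT (0.57), against -0.05 in D1.

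Markers of other cell types were present, and some differed between the D2 libraries. The 9 oligodendrocyte markers, none at 0, summed to 403.9 CPM in D2 BACHD and 338.6 CPM in D2 WT, and in D1 to 365.2 CPM (BACHD) and 314.7 CPM (WT). All 4 that were members had a ratio above 1, with Mbp at 264.8 CPM in D2 BACHD and 231.6 CPM in D2 WT (0.19). The part of these cells in the Bcas1 value was not tested. The 8 microglia markers summed to 46.8 CPM in D2 BACHD and 38.7 CPM in D2 WT, and the 8 astrocyte markers to 170.1 CPM in BACHD and 170.6 CPM in WT, with none at 0 in either list. Endothelial (3.50 CPM in BACHD and 5.76 CPM in WT), cortical glutamatergic (5.49 CPM in BACHD and 3.23 CPM in WT) and interneuron markers (8.10 CPM in BACHD and 7.35 CPM in WT) held no member, and Vip had 0 counts in both D2 libraries. Beside the immediate early values of the D1 pair, the cortical sum was 144.9 CPM in D1 BACHD and 29.9 CPM in D1 WT, and the astrocyte sum 176.8 CPM in D1 BACHD and 128.4 CPM in D1 WT. Their part in the D1 values was not tested.

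Genes of medium spiny neuron identity were slightly lower. Of 32 shared medium spiny neuron members 26 had a ratio below 1 (49.9% of all members did), with a median of -0.07. Among all members with a mean of 500 CPM or more, 62.5% had a ratio below 1. Actn2 was the only call (0.399% of all members were called lower). In the D1 pair 25 of the 32 had a ratio below 1 (51.6% of the D2 members did), also with a median of -0.07. Cnr1, the CB1 cannabinoid receptor gene, was at 530.4 CPM in D2 BACHD and 694.1 CPM in D2 WT (-0.39). Itpr1, the IP3 receptor gene, was at 453 CPM in D2 BACHD and 590 CPM in D2 WT (-0.38), and Pde10a, the striatal phosphodiesterase gene, at 1860 CPM in BACHD and 2322 CPM in WT (-0.32). Ppp1r1b, the DARPP-32 gene, was at 3038 CPM in D2 BACHD and 3474 CPM in D2 WT (-0.19), and Scn4b at 1879 CPM in BACHD and 2166 CPM in WT (-0.20). In contrast Rgs9 stood at 1378 CPM in both libraries, and Gnal, the G protein alpha subunit gene that couples dopamine D1 and adenosine receptors to adenylyl cyclase, at 1428 CPM in BACHD and 1432 CPM in WT. The striatal transcription factor genes had a median of -0.01, with Bcl11b at 412.7 CPM in D2 BACHD and 419.2 CPM in D2 WT and Foxp1 at 583.2 CPM in BACHD and 585.5 CPM in WT.

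Of 26 members of cAMP and dopamine signalling, 22 had a ratio below 1 (49.9% of all members did), with a median of -0.07 and no call. This list shares Ppp1r1b with the shared medium spiny neuron list and Adora2a with the indirect-pathway markers, so the counts are not separate. In the D1 pair 19 of the 26 had a ratio below 1 (51.6% of the D2 members did), with a median of -0.06. Adcy5, the main striatal adenylyl cyclase gene, was at 2084 CPM in D2 BACHD and 2294 CPM in D2 WT (-0.14), and Adcy9 at 12.05 CPM in BACHD and 17.1 CPM in WT (-0.51). Gng7, a G protein gamma subunit gene, was at 1567 CPM in D2 BACHD and 1478 CPM in D2 WT (0.08). Indirect-pathway markers, 11 members with a median of -0.08, ran from Gprin3 (7.38 CPM in BACHD and 10.1 CPM in WT, -0.46) and the delta opioid receptor gene Oprd1 (18.2 CPM in BACHD and 24.3 CPM in WT, -0.42) to Upb1 (18.5 CPM in BACHD and 15.1 CPM in WT, 0.29). Sp9, a transcription factor gene needed for these neurons, was level at 71.1 CPM in BACHD and 70.8 CPM in WT.

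Receptors pointed both ways. Of 24 neuropeptide and neuromodulator receptor members, 16 had a ratio below 1 and 14 an interval below 1, with 8 intervals above 1, against 22.5% and 20.8% of all members. Among the higher ones, Adcyap1r1, the PACAP receptor gene, was at 91.3 CPM in D2 BACHD and 69.4 CPM in D2 WT (0.40), Npy1r, the neuropeptide Y1 receptor gene, at 19.1 CPM in BACHD and 14.7 CPM in WT (0.37), and Oprl1, the nociceptin receptor gene, at 27.5 CPM in BACHD and 22.2 CPM in WT (0.31). Of the 8 members listed as neuropeptides, granins and Igfbp4, 7 had a ratio below 1 (49.9% of all members did). Chgb was at 178.0 CPM in D2 BACHD and 224.1 CPM in D2 WT (-0.33). Chga was the exception, at 195.7 CPM in BACHD and 166.6 CPM in WT (0.23).

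Most ion channel and synapse lists had medians near that of all members. Potassium channels (38 members) had a median of -0.02, glutamate receptors (14) 0.00, GABA transmission genes (18) -0.03 and synaptic vesicle genes (35) 0.00. Of 31 postsynaptic scaffold and spine actin members 24 had a ratio below 1, 19 with an interval below 1 and 2 with an interval above 1 (22.5% and 20.8% of all members), with a median of -0.05 and Actn2 the only call. Single genes stood out in places. The calcium channel genes Cacna1e (193 CPM in BACHD and 241 CPM in WT, -0.32) and Cacna1c (57.02 CPM in BACHD and 68.4 CPM in WT, -0.26) were lower, as was the spine scaffold gene Ppp1r9a at 616.2 CPM in D2 BACHD and 782.5 CPM in D2 WT (-0.34). Sv2c, a vesicle protein gene of the basal ganglia, was at 8.87 CPM in D2 BACHD and 13.0 CPM in D2 WT (-0.55), and Vcan, the versican gene, at 59.0 CPM in BACHD and 43.5 CPM in WT (0.44). The microtubule protein gene Map2 was at 425.3 CPM in D2 BACHD and 519.7 CPM in D2 WT (-0.29).

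**Figure D5:**
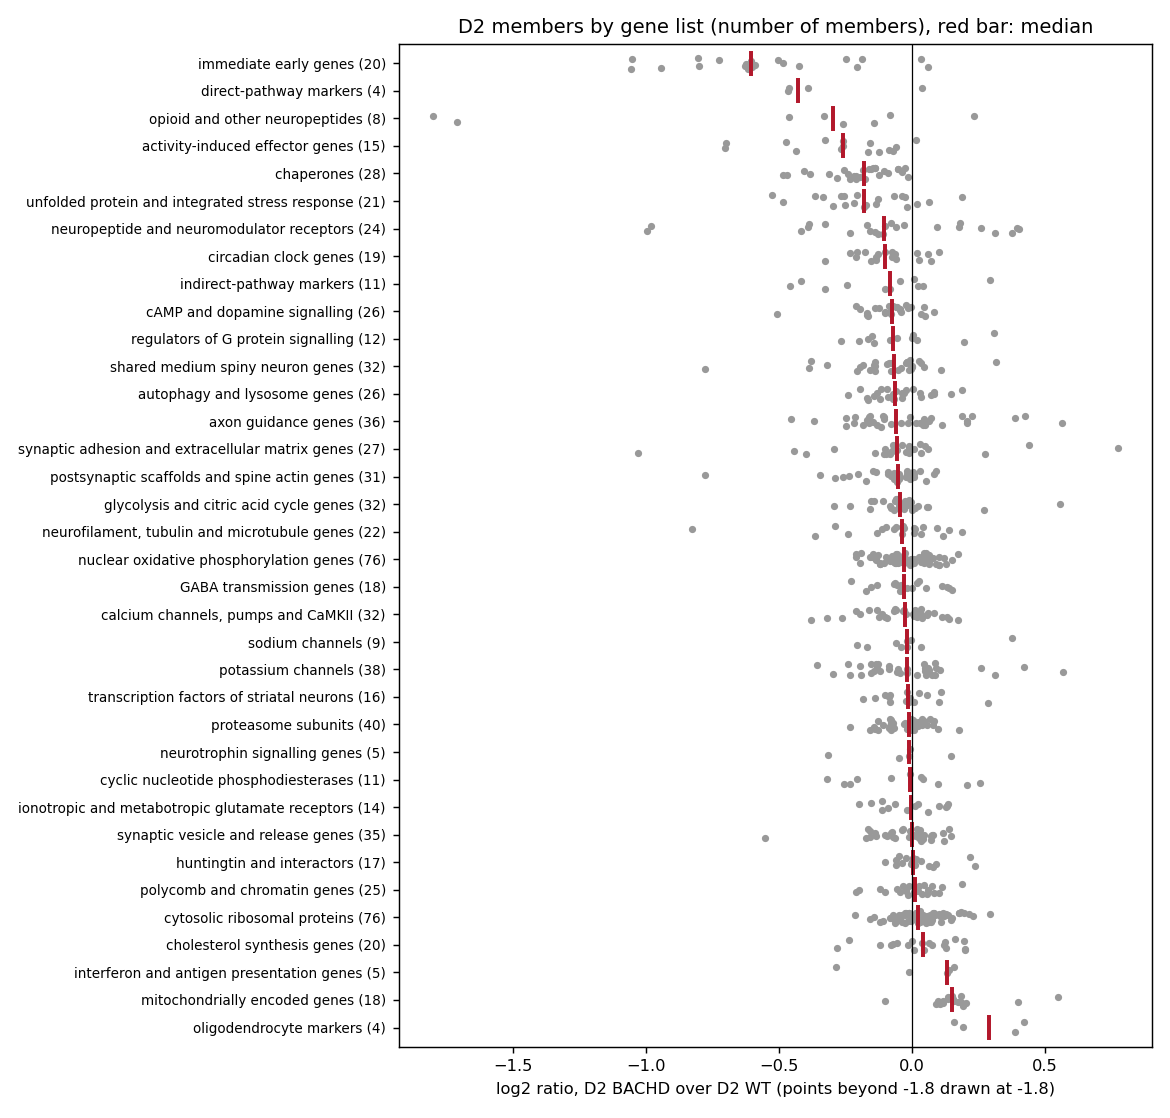
Log2 ratio of D2 BACHD over D2 WT for the members of each gene list with at least 4 members (grey points), ordered by the list median (red bars), with the number of members in brackets. The immediate early genes have the lowest median at -0.60, most lists lie within 0.1 of 0, and oligodendrocyte markers have the highest at 0.29.

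Mitochondrially encoded genes stood slightly higher in D2 BACHD, and nuclear energy genes near level or slightly lower. Of 18 mitochondrially encoded members 17 had a ratio above 1 (50.1% of all members did), and the median was 0.15 in the D2 pair, beside 0.46 in the D1 pair. Here mt-Co1 was at 22996 CPM in D2 BACHD and 20717 CPM in D2 WT, and mt-Rnr1, a ribosomal RNA gene of the organelle, was the exception at 464 CPM in BACHD and 498 CPM in WT (-0.10). The 76 nuclear oxidative phosphorylation members had a median of -0.03, 47 of them below a ratio of 1 (49.9% of all members were). In the D1 pair this list had a median of -0.12, with 65 of the 76 below a ratio of 1 (51.6% of the D2 members were). Sdha, a complex II subunit gene, was lowest in the D2 pair, at 136 CPM in D2 BACHD and 157 CPM in D2 WT (-0.21). Of 32 glycolysis and citric acid cycle members 25 had a ratio below 1 in the D2 pair (median -0.04) and 28 in the D1 pair (median -0.11). Tpi1 was at 262 CPM in D2 BACHD and 321 CPM in D2 WT (-0.29), and Pgk1 at 130 CPM in BACHD and 152 CPM in WT (-0.23). Proteasome subunits (40 members) had a median of -0.01 and cytosolic ribosomal proteins (76) 0.02.

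Clock genes leaned lower, with 14 of 19 members below a ratio of 1 (49.9% of all members were) and a median of -0.10. Per1 is also on the list of activity-linked effector genes above, so the 2 lists are not separate. Per2 was at 161 CPM in D2 BACHD and 186 CPM in D2 WT (-0.21), Cry1 at 30.9 CPM in BACHD and 35.8 CPM in WT (-0.21), and Bhlhe40 at 51.09 CPM in BACHD and 60.001 CPM in WT (-0.23), while Dbp (384 CPM in BACHD and 368 CPM in WT, 0.06) and Nr1d1 (160 CPM in BACHD and 149 CPM in WT, 0.10) stood slightly higher. Per1, Per2 and Cry1 had D1 intervals above 1 (0.18, 0.28 and 0.21). Of 17 members among huntingtin and its partners, Hap1, the huntingtin-associated protein gene, was highest at 273 CPM in D2 BACHD and 232 CPM in D2 WT (0.24), and Hip1 at 65.3 CPM in BACHD and 56.2 CPM in WT (0.22).

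Among the genes with the highest CPM, a scale not corrected for length, several were nearly level. Meg3, an imprinted long noncoding RNA, was at 9802 CPM in D2 BACHD and 9467 CPM in D2 WT (0.05), Ppp3ca, the calcineurin catalytic subunit gene, at 4311 CPM in BACHD and 4177 CPM in WT (0.05), and Hpca, the hippocalcin gene, at 3886 CPM in BACHD and 3939 CPM in WT (-0.02). The FPKM values served as a check of the measure. They are of the same libraries as the counts, so the check is not independent of the calls. The implied transcript length differed by 1.3-fold or more between the D2 libraries for only 3 members, so similar ratios were largely built in. All 48 called members kept their direction, and 36 of the 38 lower and 9 of the 10 higher ones reached a ratio of 1.5 on FPKM plus 0.1. In all, 36 lower and 18 higher members did so on that scale. Per length, Fos was at 19.8 FPKM in D2 BACHD and 40.7 FPKM in D2 WT, Arc at 148 FPKM in BACHD and 244 FPKM in WT, and Cxcl14 at 18.2 FPKM in BACHD and 8.04 FPKM in WT. Over all members the log2 ratios of the 2 files had a Pearson correlation of 0.953. The files differed for Tulp4, level in counts at 76.6 CPM in D2 BACHD and 77.0 CPM in D2 WT but 0.60 apart on FPKM plus 0.1, where the implied transcript length was 5.24 kb in D2 BACHD and 7.99 kb in D2 WT.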

How the data were processed

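The authors deposited 2 tables over 37620 Ensembl genes and 4 pooled libraries, estimated counts (19.41% of entries not whole) and FPKM values. Reads were paired 50-base reads, per the labels, and the submitters' processing notes name CASAVA 1.8.2. Which aligner, counter, annotation and build served, and whether strand was used, is not given in the sources used here. Counts were rounded and scaled by TMM (edgeR 4.0.16, R 4.3.3) over 13400 genes with 1 CPM in 2 libraries or more. Ratios of BACHD over WT have exact conditional binomial 95% intervals (scipy 1.17.1). For the ratio, any count below 3 was raised to 3. Such intervals treat each count as an independent draw and do not cover spread between pools. Copies made by PCR are not independent molecules, so the intervals can be too narrow even for counting error. A 1.5-fold ratio whose interval excluded 1 was called. The deposited FPKM, of the same libraries, gave a check that is not independent, as log2 of FPKM plus 0.1 or 1. That scale understates low genes. Symbols matched 32897 identifiers and 9369 members, and coordinates are those of GENCODE M21 on GRCm38, not necessarily the build the authors used. Promoters and microRNAs are RefSeq's, with promoters for 7363 members. The ratio and interval step was checked on simulated counts drawn with counting error alone, which is the model the intervals assume. Those counts held no spread between pools and came from genes at 10 CPM or more, so the floor of 3 was not checked.

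Members and gene lists (41) were chosen with earlier results of these data known. Named genes were the 20 largest called ratios each way, the 10 most abundant nuclear genes, up to 4 members per list by level and every called list member, Drd2, Adora2a, Penk, Gpr6 and Htt, and the 10 members whose intervals excluded 1 in opposite directions in D2 and D1 with the largest difference. Other genes were named after their values were seen, as part of a list's range or as neighbours. Genes with only an identifier are counted and not described. Alternatives were total counts with and without mitochondrial genes, TMM within D2, DESeq2 1.42.0 size factors, other membership levels, other ratios and FPKM. A few genes on the lists are not reported here.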

Additional observations from a re-analysis of the deposited data

Results flagged for a closer look

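For 14 of the 48 members called in D2 the counting intervals of the D2 and D1 pairs lay on opposite sides of a ratio of 1. They did so for 565 (5.93%) of all 9532 members. A called member has a D2 interval that excludes 1 by the rule, which held for 4132 of all members, and the 565 are all among these 4132. With 1 library in each of the 4 groups the difference was not tested for any of the 14. All 14 were lower in D2 BACHD than D2 WT and higher in D1 BACHD than D1 WT. The D2 minus D1 difference of the log2 ratio was -1.72 for Fos, -1.52 for Btg2 and -1.32 for Egr2. It was -1.29 for Arc, -1.14 for Fosl2, -1.14 for Nr4a3 and -1.06 for Nr4a1. Among the other immediate early genes it was -0.98 for Dusp1, -0.95 for Junb and -0.91 for Dusp6. Outside that list it was -1.51 for Shisa2, -1.32 for 1700016P03Rik, -1.19 for Tiparp and -0.82 for Midn.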

How the results depend on the processing

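Each group had 1 library, so no replicate could be left out. No paired analysis was possible because the groups compared hold 1 library each. The median over all members lay between -0.007 and 0.018 under the scalings and FPKM. Members higher in D2 BACHD numbered 22 from 5 CPM, 2 from 20 CPM, 2 with 10 CPM in both libraries, 437 without a filter, 18 on FPKM plus 0.1, 127 at a ratio of 5 to 4 and 1 at a ratio of 2. Lower members numbered 347 without a filter, 170 at a ratio of 5 to 4 and 7 at a ratio of 2, and between 26 and 56 otherwise. The phosphodiesterase list had a median of -0.06 (-0.0637) on FPKM plus 0.1 and on FPKM plus 1, where counts gave -0.005, and the cause was not tested. The mitochondrial list had a median of 0.17 (0.1697) with mitochondrial genes left out of the total. Under the scalings and FPKM settings none of the 48 called genes changed sign, 19 other named genes did (each with a log2 ratio within 0.07 of 0), and 106 of 1170 named values lay outside their counting intervals. Under them the immediate early median ran from -0.61 to -0.54 and the chaperone median from -0.19 to -0.16. Members near 10 CPM carry few counts, which limits their precision, and spread between pools was not measured.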

Other observations

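Some members that the files list only by an Ensembl identifier were present in the D2 libraries and nearly absent from the D1 libraries, in both genotypes. ENSMUSG00000090524 stood at 5048 counts in D2 BACHD and 4932 counts in D2 WT, and at 10 counts in D1 BACHD and 0 counts in D1 WT. ENSMUSG00000090496 stood at 1303 counts in D2 BACHD and 1346 counts in D2 WT, and at 10 counts in D1 BACHD and 3 counts in D1 WT. Their log2 ratios in the D2 pair, 0.05 and -0.03, were close to the median of all members. The pair was chosen after the values were seen, and what these identifiers stand for is not given in the sources used.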
